A study of Homo sapiens with 6 samples.

Results

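The cyclins of types E, A and B switch on the cyclin dependent kinases CDK2 and CDK1, and 10 genes of this system are described here in bulk RNA sequencing of human colon epithelial cells with and without depletion of adenomatous polyposis coli (APC). The genes are the E cyclins CCNE1 and CCNE2, the A cyclin CCNA2, the B cyclins CCNB1 and CCNB2, the kinases CDK1 and CDK2, the activating phosphatases CDC25A and CDC25B, and the inhibitor CDKN1B. They are chosen by gene symbol, and all 10 are found among the 24462 different symbols of the count tables, each in a single row. The study compares 1CT, an immortalized human colonic epithelial cell (HCEC) line labelled WT, with 1CT-A, its APC depleted version, labelled APC KD for knockdown. Each line has 3 libraries, and all cells are untreated and grown in DMEM and M199 medium with epidermal growth factor, hydrocortisone, insulin, sodium selenite, transferrin and 2% FBS. Both lines are immortalized, and the study describes 1CT as carrying a telomerase (hTERT) manipulation. The sources used here do not say whether libraries of a line come from separate cultures, how many clones 1CT-A holds, or whether the 1CT libraries carry a control vector. The p values below therefore measure the spread between these libraries, which may be technical, and a difference between the lines may also hold differences other than APC.

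A kinase of this family is inactive until a cyclin binds it, and the cyclins appear one after another through the cell cycle. E cyclins activate CDK2 at the entry into DNA synthesis, cyclin A2 works with CDK2 in S phase and with CDK1 in G2, and B cyclins with CDK1 drive mitosis. WEE1 and PKMYT1 place inhibitory phosphates on the kinases, the CDC25 phosphatases remove them, and CDKN1B, the p27 protein, binds and blocks cyclin and CDK2 complexes. APC is a component of the β-catenin destruction complex, and loss of APC is the usual first step of colorectal tumors.

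The libraries are QuantSeq libraries, which give reads near the 3′ end of polyadenylated RNA, and hold 7788679 to 8452258 counts in 1CT and 11158108 to 12602988 in 1CT-A. Levels are given as CPM, which are counts divided by the total of the library and scaled to 1000000. A gene is taken as detected above 3 counts, equal to 0.355 to 0.385 CPM in the 1CT libraries and to 0.238 to 0.269 CPM in those of 1CT-A. This limit covers counting error only. APC itself is at 49.3, 43.8 and 46.6 CPM in 1CT and 31.5, 30.02 and 34.4 CPM in 1CT-A, without overlap (log2 fold change -0.58, edgeR adjusted p = 1.8e-04), and APC RNA is present in every 1CT-A library. Of 10 markers of colon epithelium, 6 have at most 3 counts in any library. Among these 6, EPCAM, VIL1 and CDX1 have 0 counts in every library. CDH1 has 3 to 4 counts in 1CT and 0 to 3 in 1CT-A. KRT18 and KRT19, which are called lower in 1CT-A, are the only members tested (26.0% of all genes tested are called lower). The summed level of the list runs from 13.4 to 17.6 CPM in 1CT but from 3.23 to 7.2 CPM in 1CT-A. KRT19 has 20 to 34 counts in the 1CT libraries and 0 in the 1CT-A libraries. The 8 mesenchymal markers are all present, with a summed level between 4660 and 5660 CPM in 1CT against 4300 to 4610 CPM in 1CT-A. Of them, 2 are called higher and 4 lower, where 25.0% of all genes tested are called higher and 26.0% lower. KRT8 has 4 to 14 counts in 1CT and 0 to 8 in 1CT-A. KRT18 carries most of the list, at 9.94, 13.2 and 10.53 CPM in 1CT and 3.23, 7.02 and 4.92 CPM in 1CT-A. In cells labelled as colonic epithelial, EPCAM, VIL1 and CDX1 are thus at 0 while the keratins KRT18 and, in 1CT, KRT19 are detected at low levels, and of the 5 immune and 4 endothelial markers, CD14 and CD68 alone pass 3 counts in a library. The part of these marker levels in the results below was not tested.

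The promoters of 8 of the 10 genes are read from RefSeq (GRCh38.p14), in windows from 250 bases before to 50 bases after a transcription start. The stretches below are shown because genes that rise together in G2 and mitosis are known to share a CCAAT box, bound by NF-Y, and the cell cycle genes homology region (CHR), bound by the MuvB complexes, upstream of the start. Both strands were searched for CCAAT. The CHR was searched in its canonical spelling TTTGAA and in the variant spellings CTTGAA and, as a form that also resembles a TATA element, TTTAAA. The E2F site was searched as TTTCCCGC, TTTCGCGC, TTTGCCGC or TTTGGCGC. No match overlaps a match of another motif. Each stretch is the 100 bases before the RefSeq start, or 30 bases for the downstream start of CDK1, and capitals mark the matches on either strand. Some printed bases lie in annotated exons, 24 of the 30 in CDK1, 20 of the 100 in CCNB2 and 15 of the 100 in CCNB1. The stretches of the other genes hold 0 such bases. The stretches of CDK1, CCNB2 and CCNB1 are thus not purely upstream sequence. Whether their matches fall on exon bases was not tested.
CCNA2, chr4:121823884-121823983, minus strand: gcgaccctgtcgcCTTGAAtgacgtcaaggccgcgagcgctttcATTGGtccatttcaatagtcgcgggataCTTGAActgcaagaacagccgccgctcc
CCNB1, chr5:69167050-69167149, plus strand: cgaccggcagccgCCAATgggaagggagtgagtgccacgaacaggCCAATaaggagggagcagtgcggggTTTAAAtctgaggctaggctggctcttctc
CCNB2, chr15:59105046-59105145, plus strand: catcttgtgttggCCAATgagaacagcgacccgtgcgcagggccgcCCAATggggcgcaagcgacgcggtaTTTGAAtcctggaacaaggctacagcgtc
CDK1, chr10:60778448-60778477, plus strand: ccctttagcgcggtgagTTTGAAactgctc
CDC25A, chr3:48188418-48188517, minus strand: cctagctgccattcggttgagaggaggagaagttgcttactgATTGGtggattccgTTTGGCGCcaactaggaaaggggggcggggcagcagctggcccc
CCNE1, chr19:29811891-29811990, plus strand: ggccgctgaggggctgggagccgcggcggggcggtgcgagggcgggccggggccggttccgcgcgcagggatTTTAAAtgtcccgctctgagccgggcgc
CDKN1B, chr12:12717268-12717367, plus strand: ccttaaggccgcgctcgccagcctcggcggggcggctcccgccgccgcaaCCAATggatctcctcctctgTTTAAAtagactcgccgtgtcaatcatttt

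Positions in these stretches are counted back from -1, the last base before the RefSeq start, and hold for that start only. The CHR begins as TTTGAA at -29 in CCNB2 and at -13 at the downstream start of CDK1, and as CTTGAA at -28 in CCNA2. The matches at -30 in CCNB1, -28 in CCNE1 and -30 in CDKN1B are all TTTAAA, the spelling that resembles a TATA element. Neighbouring CCAAT matches begin 32 bases apart in CCNB1 and at the downstream start of CDK1, and 33 bases apart in the 3 matches of CCNB2 nearest to the start. CCNE1 has no CCAAT match in its window, whereas the other 7 genes have at least 1. CDC25A has an E2F match from -44 to -37 and no CHR spelling. Counting all 12 windows, since CDK1 has 2 annotated starts and CDC25B has 4, CCAAT is found in 9 windows (75%), a CHR spelling in 8 (66.7%) and an E2F spelling in 3 (25%). Among all 35116 RefSeq windows of this length the shares are 34.6%, 31.2% and 3.31%. By spelling, TTTGAA is found in 15.2% of these RefSeq windows, CTTGAA in 11.2% and TTTAAA in 12.2%. In the windows of CCNE1, CCNB1, CDKN1B and start 4 of CDC25B, TTTAAA is the only CHR spelling. The CHR share of the member windows therefore rests in part on letters that resemble a TATA element. At start 4 of CDC25B the match lies after the start, from 32 to 37, and the windows of its other starts have no CHR spelling. The windows of a gene can overlap, so that both windows of CDK1 hold the same E2F match. A match of letters is a description and does not show that a factor binds there in these cells.

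**Figure D1:**
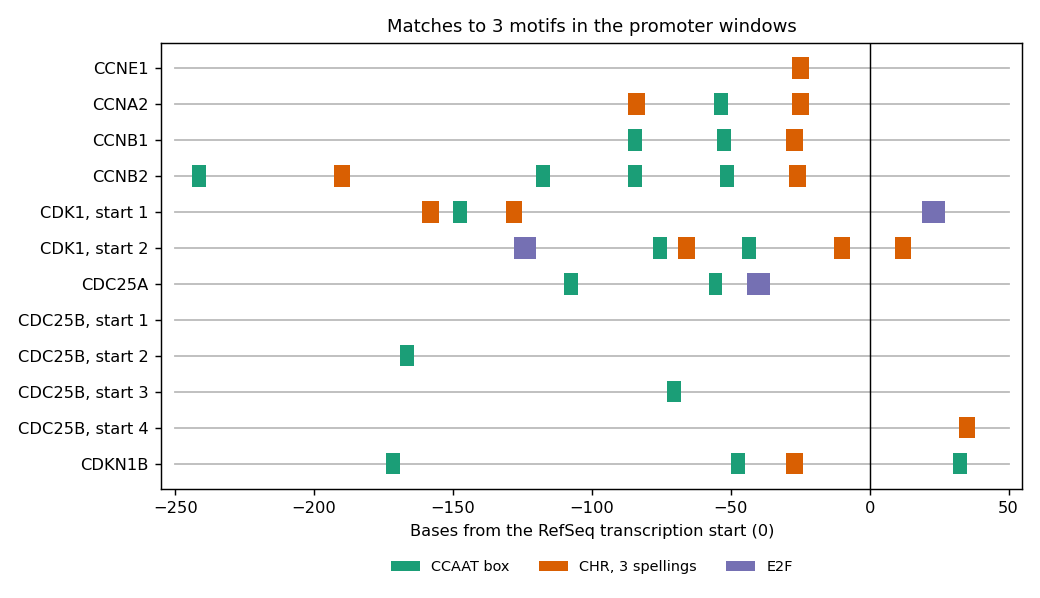
Matches of the CCAAT box, of 3 spellings of the CHR and of 4 spellings of the E2F site in the 12 RefSeq promoter windows, with the distance from the transcription start in bases on the x axis and a gene or start on each line. The matches to a CHR spelling nearest to the start lie between -30 and -23 in CCNE1, CCNA2, CCNB1, CCNB2 and CDKN1B. Those in CCNE1, CCNB1 and CDKN1B are TTTAAA, the spelling that resembles a TATA element. CCNE1 is without a CCAAT match.

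Of the 10 genes, 9 are called higher and 1, CCNE1, is called lower in 1CT-A than in 1CT by the quasi-likelihood test of edgeR, with an adjusted p below 0.05 as the threshold. Over all 12514 genes tested, 25.0% are called higher and 26.0% lower, 51.0% in all. The CPM ranges of the lines do not overlap for any of the 10 genes, which holds for 59.7% of all genes tested. The median log2 fold change is 0.73 over the 10 genes and -0.0067 over all genes tested, and the genes were chosen with earlier results of these data known. Summed, the 10 genes reach between 550.6 and 593 CPM in the 1CT libraries and between 1084 and 1102 CPM in the 1CT-A libraries. For each gene, exact permutation of the 6 library labels, two-sided, gives p = 0.1, the smallest p it allows, so each call rests on the fit across all genes. In bulk RNA, a larger share of cells in a phase of the cycle and more RNA per cell cannot be told apart. The proliferation markers MKI67, PCNA and TOP2A are also called higher in 1CT-A, with log2 fold changes of 0.39, 1.22 and 0.84 (edgeR adjusted p of 0.002, 2.8e-07 and 9.8e-07), and their part in the values below was not tested.

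**Figure D2:**
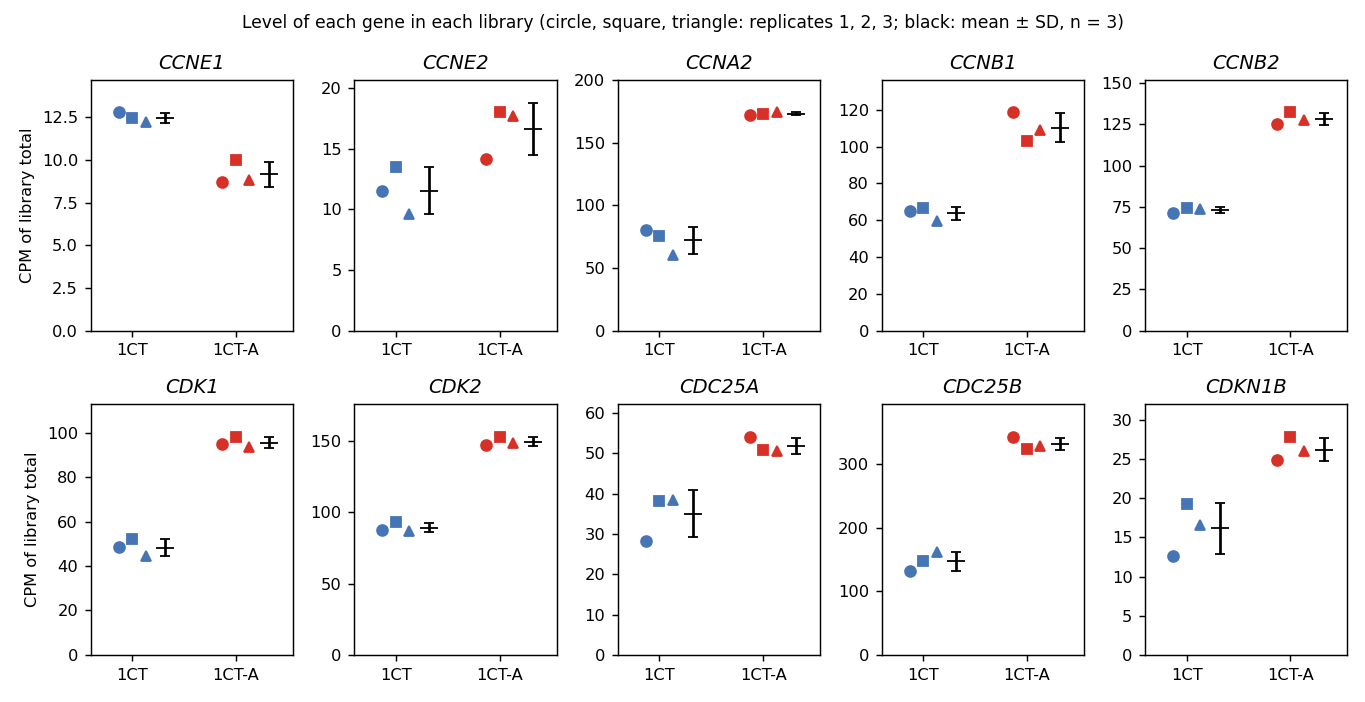
Level of each of the 10 genes in CPM of the library total, with 1CT in blue, 1CT-A in red, circles, squares and triangles for replicates 1, 2 and 3, and the mean ± SD (n = 3) in black. In every panel the 1CT-A libraries lie apart from the 1CT libraries, below them for CCNE1 and above them for the other 9 genes, and the narrowest gap is that of CCNE2.

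The E cyclins are called in opposite directions, CCNE1 lower and CCNE2 higher. CCNE1 is at 12.8, 12.4 and 12.2 CPM in the 1CT libraries and at 8.69, 10.01 and 8.81 CPM in the 1CT-A libraries. All 3 libraries of 1CT are above all 3 of 1CT-A, and the spread in 1CT (SD 0.292 CPM) is smaller than the 1.24 CPM that counting error alone would give. Its log2 fold change is -0.48 (standard error 0.13, approximate 95% interval -0.77 to -0.19, edgeR adjusted p = 0.0089). CCNE2 is at 11.5, 13.5 and 9.63 CPM in 1CT and at 14.2, 17.99 and 17.7 CPM in 1CT-A. The lowest 1CT-A library is only 0.637 CPM above the highest 1CT library. The log2 fold change of CCNE2 is 0.49 (standard error 0.15, 95% interval 0.16 to 0.81, edgeR adjusted p = 0.016). This call is lost when 1CT-A replicate 2 is left out (log2 fold change 0.44, edgeR adjusted p = 0.0636) and when 1CT-A replicate 3 is left out (0.44, edgeR adjusted p = 0.0604).

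Whether reads were counted by strand is not given in the sources used here, and CCNE2 overlaps INTS8, an Integrator complex gene on the opposite strand, by 1977 bases in GENCODE release 44. INTS8 has 120, 133 and 95 counts in 1CT and 185, 241 and 251 in 1CT-A, beside 97, 112 and 75 and then 158, 205 and 223 counts of CCNE2. CCNE2 has 0.789 to 0.842 counts for each count of INTS8 in 1CT and 0.851 to 0.888 in 1CT-A, without overlap. The counts of CCNE2 run close to those of INTS8 from library to library, and these counts are not scaled for the library totals. The part of INTS8 reads in the values of CCNE2 was not tested. INTS8 is itself higher in 1CT-A (log2 fold change 0.40, edgeR adjusted p = 0.0262). Without strand, reads of these genes cannot be told apart, and the values of CCNE2 are uncertain for that reason. CCNE2 also overlaps NDUFAF6 on the opposite strand by 1146 bases (log2 fold change 0.31, edgeR adjusted p = 0.0741). CCNE1 overlaps no other gene of that annotation.

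CCNA2, the A cyclin of dividing cells, has the largest rise of the 10 genes. It is at 80.7, 75.6 and 60.2 CPM in 1CT and at 172, 173 and 174 CPM in 1CT-A. The 1CT libraries scatter by 14.8% of their mean, with replicate 3 lowest, whereas the 1CT-A libraries scatter by 0.676%, an SD of 1.17 CPM against 3.85 CPM for counting error alone. The gap between the lines is 91.3 CPM. Its log2 fold change is 1.22 (standard error 0.09, 95% interval 1.02 to 1.43, edgeR adjusted p = 3.4e-07), a 2.33-fold rise, which lies at the 97.4th percentile of the log2 fold changes of all genes tested. EXOSC9, an RNA exosome gene, overlaps CCNA2 by 578 bases on the opposite strand and is higher in 1CT-A too (log2 fold change 0.83, edgeR adjusted p = 1.1e-05). CCNA2 has 1.28 to 1.35 counts for each count of EXOSC9 in 1CT and 1.67 to 1.74 in 1CT-A, without overlap. Without strand, reads of CCNA2 and EXOSC9 cannot be told apart where the genes overlap, so the values of CCNA2 are uncertain for that reason too. The part of EXOSC9 reads in them was not tested. CCNA1, the germline A cyclin, has 0 counts in all 6 libraries.

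Both B cyclins rise, with overlapping intervals of their fold changes. CCNB1, the main mitotic cyclin, is at 64.8, 66.8 and 59.7 CPM in 1CT and at 118.6, 103 and 109 CPM in 1CT-A. CCNB2, its Golgi-associated relative, is at 71.2, 74.3 and 73.7 CPM in 1CT and at 125, 132 and 128 CPM in 1CT-A. Each 1CT-A library is above each 1CT library in both genes, by at least 36.5 CPM for CCNB1 and 50.8 CPM for CCNB2. The log2 fold changes are 0.75 for CCNB1 (95% interval 0.57 to 0.93, edgeR adjusted p = 8.8e-06) and 0.77 for CCNB2 (95% interval 0.62 to 0.93, edgeR adjusted p = 1.8e-06). CCNB3, a B cyclin best known from germ cells, has at most 2 counts in a library.

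Both kinases rise. CDK1, which drives mitosis, is at 48.5, 52.2 and 44.4 CPM in 1CT and at 95.1, 98.2 and 93.6 CPM in 1CT-A. CDK2, the partner of E and A cyclins, is at 87.7, 93.5 and 87.2 CPM in 1CT and at 147, 153 and 149 CPM in 1CT-A. No library of 1CT reaches the lowest library of 1CT-A in either gene. The log2 fold change of CDK1 is 0.94 (95% interval 0.77 to 1.12, edgeR adjusted p = 9.5e-07) and that of CDK2 is 0.70 (95% interval 0.55 to 0.86, edgeR adjusted p = 3.4e-06). CDK1 overlaps no other annotated gene, and PMEL, which overlaps CDK2 on the opposite strand, has at most 3 counts in a library. CDK2 also overlaps a long noncoding RNA gene on the opposite strand by 637 bases, which is not among the counted symbols.

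Both activating phosphatases rise. CDC25B, which acts at the entry into mitosis, is at 132.5, 147 and 162 CPM in 1CT and at 342.5, 324 and 327.5 CPM in 1CT-A. The lowest 1CT-A library is 162 CPM above the highest 1CT library. Its log2 fold change is 1.13 (standard error 0.08, 95% interval 0.95 to 1.31, edgeR adjusted p = 2.2e-07), a 2.19-fold rise and, after CCNA2, the largest among the 10 genes. CDC25A, which acts at the entry into S phase and also in mitosis, is at 28.3, 38.3 and 38.5 CPM in 1CT and at 54.1, 50.8 and 50.7 CPM in 1CT-A. In 1CT, replicate 1 is low for CDC25A, and the other 1CT libraries remain 12.2 CPM or more below 1CT-A. The log2 fold change of CDC25A is 0.53 (standard error 0.11, 95% interval 0.28 to 0.78, edgeR adjusted p = 0.0018).

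CDKN1B, the p27 inhibitor, is higher in 1CT-A along with the kinases it blocks. It is at 12.7, 19.2 and 16.6 CPM in 1CT and at 24.8, 27.8 and 25.9 CPM in 1CT-A. The 1CT libraries scatter by 20.4% of their mean, an SD of 3.29 CPM against 1.41 CPM for counting error alone, and the highest of them is 5.63 CPM below the lowest 1CT-A library. Its log2 fold change is 0.66 (standard error 0.14, 95% interval 0.36 to 0.96, edgeR adjusted p = 0.0014). The protein level of p27 is set largely by its turnover, which RNA counts do not measure. GPR19, which overlaps CDKN1B on the opposite strand, has at most 3 counts in a library.

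**Figure D3:**
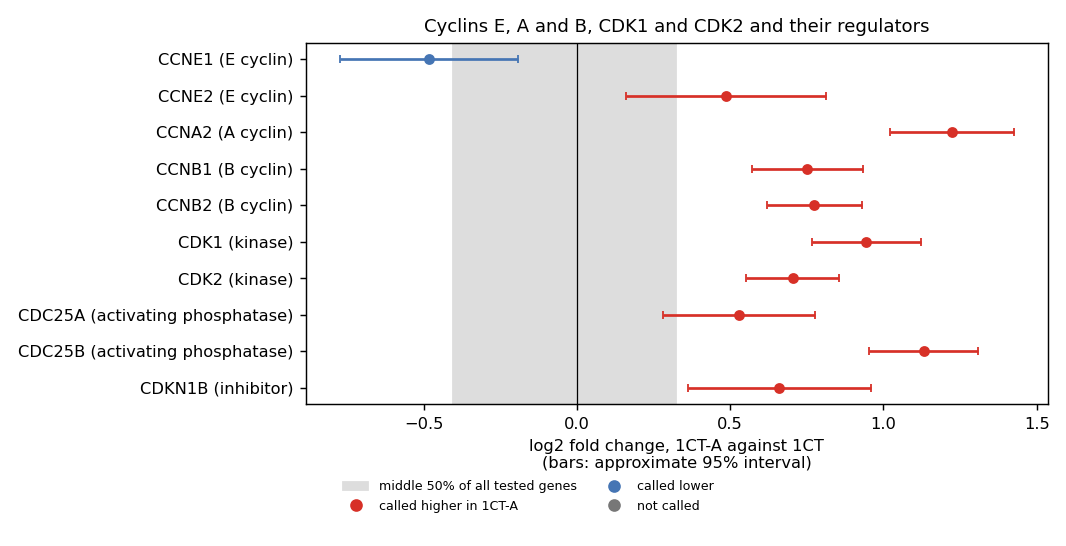
Change from 1CT to 1CT-A in log2 fold for the 10 genes with approximate 95% intervals, in red where called higher and in blue where called lower, over a grey band that holds the middle of all tested genes, from -0.40 to 0.33. CCNA2 (1.22) and CDC25B (1.13) lie farthest to the right, and CCNE1 (-0.48) is the only gene to the left of 0.

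In the order of their log2 fold changes, CCNA2 (1.22), CDC25B (1.13) and CDK1 (0.94) are followed by CCNB2 (0.77), CCNB1 (0.75), CDK2 (0.70), CDKN1B (0.66), CDC25A (0.53), CCNE2 (0.49) and CCNE1 (-0.48). The intervals of neighbours in this order overlap, except those of CCNE2 and CCNE1. To compare genes without any scaling between libraries, the ratio of the counts of 2 genes is taken within each library. The log2 ratio of CCNA2 to CCNE1 is 2.66, 2.60 and 2.30 in 1CT and 4.31, 4.11 and 4.31 in 1CT-A, a difference of 1.72. That of CCNE2 to CCNE1 is -0.15, 0.12 and -0.34 in 1CT and 0.70, 0.85 and 1.01 in 1CT-A, a difference of 0.98. Neither ratio overlaps between the lines, and the strand limit given above for CCNA2 and CCNE2 applies to both ratios.

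The log2 ratio of CDC25A to CDC25B is -2.23, -1.94 and -2.07 in 1CT and -2.66, -2.67 and -2.69 in 1CT-A, a difference of -0.59, and that of CDK1 to CDK2 differs by 0.24. For CDC25A against CDC25B and for CDK1 against CDK2 the lines do not overlap either. The ratio of CCNB2 to CCNB1 overlaps between the lines, with means of 0.20 ± 0.09 in 1CT and 0.22 ± 0.14 in 1CT-A (SD, n = 3, log2 scale). The ratio of CDKN1B to CDK2 also overlaps, at -2.49 ± 0.27 in 1CT and -2.52 ± 0.05 in 1CT-A (SD, n = 3, log2 scale). In exact two-sided permutation tests the 4 pairs without overlap have p = 0.1, adjusted p = 0.15 over the 6 pairs, and the other 2 pairs have p = 0.9. No pair passes a threshold of 0.05, which 3 libraries against 3 cannot reach.

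**Figure D4:**
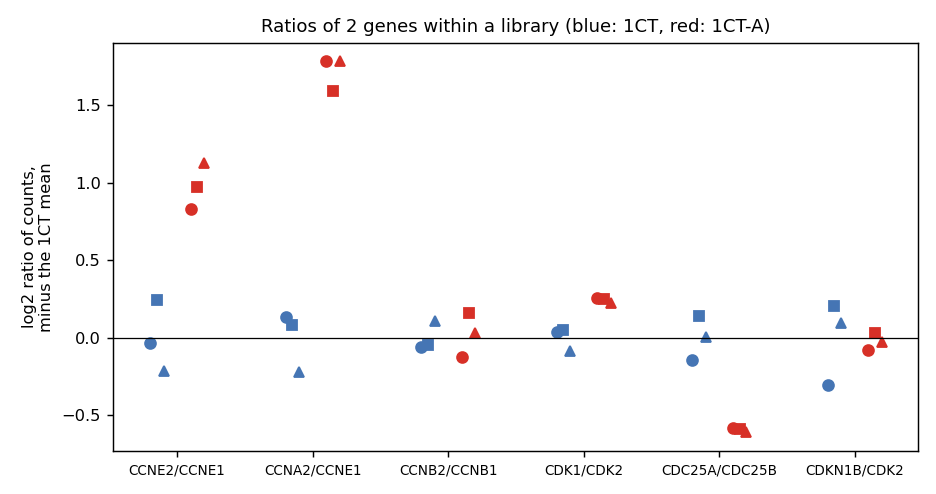
Log2 ratio of the counts of 2 genes within a library, minus the mean of the ratio in 1CT, for 6 pairs, with 1CT in blue, 1CT-A in red and circles, squares and triangles for replicates 1, 2 and 3. CCNA2/CCNE1 and CCNE2/CCNE1 are higher in every 1CT-A library (differences of 1.72 and 0.98), CDC25A/CDC25B is lower (-0.59), and CCNB2/CCNB1 and CDKN1B/CDK2 overlap.

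Around these 10 genes, a list of 34 further genes of the CDK1 and CDK2 network was taken, of which 31 have enough counts to be tested. Of these, 19 are called higher, 2 lower and 10 neither, where 25.0% of all genes tested are called higher, 26.0% lower and 51.0% in either direction. Their median log2 fold change is 0.48, against -0.0067 over all genes tested. Among the other cyclins and kinase subunits, 3 of 4 tested genes are called higher (25.0% of all genes tested). CKS1B, a small subunit that docks substrates on the kinases and helps to mark p27 for destruction, is at 150.0, 157.6 and 142 CPM in 1CT and at 291, 318 and 312 CPM in 1CT-A (log2 fold change 0.99, edgeR adjusted p = 1.3e-07). All of its 1CT-A libraries are far above those of 1CT. CDK3 is not called (-0.26, edgeR adjusted p = 0.198).

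Genes that activate and genes that inhibit the kinases are both among those that rise. CDC25C, the third phosphatase of its family, is at 11.3 ± 0.449 CPM in 1CT and 17.0 ± 1.54 CPM in 1CT-A (SD, n = 3, log2 fold change 0.56, edgeR adjusted p = 0.0029). WEE1, which opposes the CDC25 phosphatases, is at 7.22, 6.04 and 7.06 CPM in 1CT and at 13.4, 12.99 and 12.2 CPM in 1CT-A, without overlap (log2 fold change 0.89, edgeR adjusted p = 2.4e-04). Of the inhibitors of the p27 family, CDKN1A, the p21 protein, falls from 631 ± 60.1 CPM to 277 ± 4.75 CPM (SD, n = 3, log2 fold change -1.23, edgeR adjusted p = 6.1e-08), opposite to CDKN1B. CDKN1C has 4 to 15 counts in a library and was not tested.

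Of the 5 genes that serve the turnover of p27 and cyclin E, SKP2 is called higher, SKP1 is called lower, and CUL1, RBX1 and FBXW7 are not called (51.0% of all genes tested are called in either direction). SKP2, the F-box protein that recognizes p27, is at 38.8, 42.6 and 36.2 CPM in 1CT and at 71.3, 81.3 and 83.2 CPM in 1CT-A, without overlap (log2 fold change 0.96, edgeR adjusted p = 2.1e-06). FBXW7, the F-box protein that recognizes cyclin E, is at 79.8 ± 0.991 CPM in 1CT and 72.8 ± 6.19 CPM in 1CT-A (SD, n = 3, log2 fold change -0.17, edgeR adjusted p = 0.108). Of the checkpoint kinases, CHEK2 (log2 fold change 0.80, edgeR adjusted p = 9.2e-04) and CHEK1 (0.48, edgeR adjusted p = 0.023) are called higher and ATR is not. In the Greatwall pathway, which restrains the phosphatase that reverses CDK1 phosphorylation, MASTL, ENSA and ARPP19 are called higher and the phosphatase subunits PPP2R2A and PPP2R2D are not called.

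Of the 6 factors that act on late cell cycle promoters, 5 are called higher, beside 25.0% of all genes tested. FOXM1, which activates genes of G2 and mitosis, is at 71.8, 76.7 and 82.7 CPM in 1CT and at 149.5, 143 and 136 CPM in 1CT-A, without overlap (log2 fold change 0.85, edgeR adjusted p = 2.5e-06). The MuvB subunits LIN9 and LIN52 have larger fold changes at low levels. LIN9 is at 3.89 ± 0.967 CPM in 1CT and 11.8 ± 3.12 CPM in 1CT-A (SD, n = 3, log2 fold change 1.56, edgeR adjusted p = 1.3e-04). LIN52 is at 4.17 ± 0.784 CPM in 1CT and 9.28 ± 1.42 CPM in 1CT-A (SD, n = 3, log2 fold change 1.12, edgeR adjusted p = 4.7e-04). LIN37, another MuvB subunit, is not called (-0.28, edgeR adjusted p = 0.371).

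**Figure D5:**
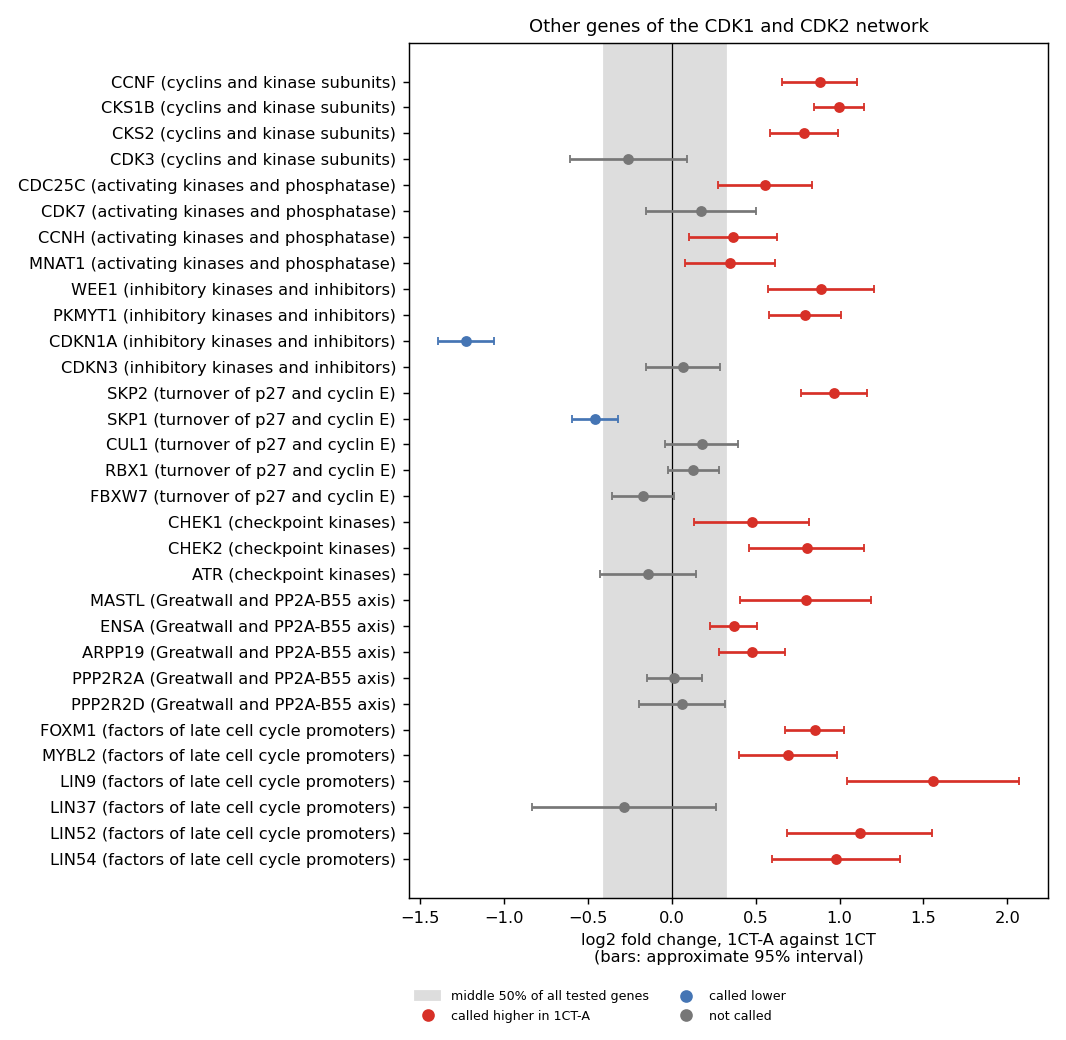
Change from 1CT to 1CT-A in log2 fold with approximate 95% intervals for the 31 tested genes of the CDK1 and CDK2 network list, in red where called higher, blue where called lower and grey where not called, over a grey band for the middle of all tested genes. Of the 31 genes, 19 are called higher, CDKN1A (-1.23) and SKP1 (-0.46) are called lower, and LIN9 (1.56) lies farthest to the right.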

How the data were processed

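For each of 6 libraries the authors deposited raw counts of reads per gene symbol, without normalization or pooling. Per the labels, libraries are QuantSeq libraries from 500 ng of total RNA. The submitters' processing notes name Bowtie2, edgeR and hg19, without versions. The counting tool, annotation, strand setting and read filters are not given in the sources used here. RefSeq windows and GENCODE overlaps are on GRCh38 and were used only for sequences and neighbours, not for counts. Some annotated genes that overlap CCNE2, CCNB2, CDK2 or CDC25A are not among the counted symbols, so they have no values here.

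Counts of the 286 symbols entered in several rows were added (1.46% of counts, no member). Genes were filtered with filterByExpr (minimum count 10), normalized by TMM (factors 0.975 to 1.02) and tested with edgeR 4.0.16 (R 4.3.3), quasi-likelihood, without a block, with Benjamini-Hochberg adjustment over 12514 genes. The script was tested on simulated data. Standard errors are the log2 fold change over the root of the F statistic. Replicate pairs of a line differed beyond sampling noise (chi-square per degree of freedom 3 to 8.42).

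Genes named are the 10 members, APC, 3 proliferation markers, network genes called with at least a 2-fold change and 6 others listed beforehand. Overlapping genes and others named beside a count were added after values were seen. Members and lists were chosen with earlier results of these data known. Same-numbered libraries did not deviate together more than others (correlations -0.157, 0.216 and -0.136 over 8223 genes). The correlations of differently numbered libraries ran from -0.286 to 0.339. Alternatives were other scalings (DESeq2 size factors, upper quartile, totals only), no filter or a stricter one (every library with 10 counts or more), the tests of DESeq2 1.42.0 and of limma 3.58.1 (voom), the replicate block, repeated symbols dropped, an adjusted p of 0.01, and each library left out.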

Additional observations from a re-analysis of the deposited data

How the results depend on the processing

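The direction of all 10 genes was the same under every alternative. With each library left out in turn, CCNE2 lay between 0.39 and 0.61 on the log2 scale and lost its call without 1CT-A replicate 2 (0.44) or 3 (0.44), so 9 genes were then called. At an adjusted p under 0.01, 9 were called too. Of all genes tested, 5543 of 12579 were called without 1CT-A replicate 2 and 5364 of 12560 without 1CT-A replicate 3. At an adjusted p under 0.01 it was 4671 of 12514. The log2 ratio of CCNB2 to CCNB1 changed between -0.045 and 0.096 with each library left out, and that of CDKN1B to CDK2 between -0.18 and 0.079, so both took either sign. With the replicate block, 10 genes were called and CCNE2 was at 0.49, CCNE1 at -0.48, and 6091 of all 12514 genes tested were called. The block changed no call among the 10 genes. Of the 31 network genes tested, 18 to 21 were called over all alternatives, 16 to 19 higher and 2 or 3 lower. The number called among all genes ran from 4671 of 12514 (adjusted p under 0.01) to 7238 of 19169 (no filter). At an adjusted p under 0.01, 18 were called and CHEK1, CCNH and MNAT1 were not, and without 1CT-A replicate 2, 18 were called. With upper-quartile scaling or without 1CT replicate 3, 3 were lower, beside 3661 of 12514 and 3299 of 12846 genes tested. Between scalings, the share called higher among all called genes moved from 42.3% (upper quartile) to 53.4% (library totals only). CCNE1 and CCNE2, with 75 to 223 counts per library, are the genes for which depth limits the precision most.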

Other observations

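Over log2 TMM-normalized CPM of the 6 libraries and 8175 other genes whose mean reaches 10 CPM, the genes whose levels run most like CCNA2 are RCC1 (Pearson r = 0.9993), SMS (0.9991) and CCT2 (0.9989). Those most like CCNE1 are SPACA6P (0.9997), NDUFA2 (0.9984) and DSG2 (0.9983). The 6 points fall into 2 groups of libraries, so that these values largely describe the difference between the lines. The log2 fold changes behind them run from 0.53 for CCT2 to 1.20 for RCC1, and from -0.44 for NDUFA2 to -4.88 for DSG2, the desmosomal cadherin desmoglein 2.

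Within 1CT, replicate 1 is below its line's mean for CDC25A, CDC25B and CDKN1B, by 0.30, 0.15 and 0.33 on the log2 scale, and replicate 3 is below it for CCNA2 and CCNE2, by 0.23 and 0.22. In 1CT-A no library deviates by more than 0.08 in size for CCNA2, CDC25A, CDC25B and CDKN1B. Other genes differ from this, with a largest deviation of 0.028 in 1CT and 0.11 in 1CT-A for CCNE1, of 0.076 and 0.12 for CCNB1, and of 0.22 and 0.20 for CCNE2. No explanation for this scatter was tested.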
